A study of Mus musculus with 2 samples.

Results

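The genes described here encode the nuclear share of the oxidative phosphorylation machinery of the mouse, in intestinal epithelium with and without a Fabp4 deletion. They were taken from the authors' deposited gene table by symbol: names that start with Nduf, Uqcr, Atp5 or Cox followed by 4, 5, 6, 7 or 8, together with Sdha, Sdhb, Sdhc, Sdhd and Cyc1. That rule gave 94 of the 17219 genes listed. By their known roles, 77 are subunits found in most tissues, called common subunits here, 6 are tissue-restricted isoforms of complex IV, 2 are copies of Ndufb4, and 9 help to build complexes without being part of the finished enzyme, although the names of the latter fall under the same prefixes. The rule reads symbols and no measured value, although it was set with earlier results of these data known.

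Mouse intestinal crypts were embedded in Matrigel and grown as organoids, cultures of epithelium alone which hold stem cells and their differentiated progeny, and RNA was taken on day 6. The WT library came from mice with floxed Fabp4 alleles, and the F4KO library from mice that carried the same floxed alleles and a villin-Cre transgene, which deletes in intestinal epithelial cells. FABP4 binds fatty acids and is mostly studied in fat cells and macrophages. The genotype label of the F4KO library says knockdown, whereas its title and the design text say knockout. Both groups share the floxed alleles, and there was 1 library of each genotype, so no value below has a replicate check and no genotype test was made. The same deposited table holds a second comparison whose headers name WT and F4KO libraries called Epi. The labels used here describe no Epi samples, so these are given under that name only, with 1 library of each genotype and the sources used here give neither their tissue nor their preparation. Values are F4KO over WT, a direction taken from the name order in the headers.

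Oxidative phosphorylation passes electrons from NADH (complex I) and succinate (complex II) through complex III to complex IV, which reduces oxygen, and the proton gradient so made drives the ATP synthase, complex V. Complexes I, III, IV and V mix subunits encoded in the nucleus with subunits encoded in mitochondrial DNA, while complex II is nuclear only. In the intestine, enterocytes use this machinery to power the absorption and repackaging of nutrients, and mitochondrial activity is known to rise as cells leave the crypt. The mitochondrially encoded subunits were not analysed here.

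Transcription of these genes is known to be coordinated by a few factors, among them NRF1, GABP (also called NRF2) and YY1, and their motifs were searched on both strands from 250 bases before to 50 bases after the start site, in RefSeq promoters of GRCm38.p6. Of the 94 genes, 76 had a promoter entry. The 10-letter palindrome bound by NRF1, in capitals in the first 4 windows, was found in 7 of the 76 promoters, 9.21%, and in 1.63% of the 13605 promoters of all listed genes. When its 6th place could be any base, as in the Sdhd window, it was found in 18 promoters, against 8.31% of all. The GABP core CCGGAAG was also found in 18, against 14.7% of all, and the 11-letter YY1 motif, in capitals in the Ndufs7 window, in 5, against 1.24% of all. The windows are shown because they hold such a match in a gene of each complex, with both NRF1 and YY1 examples for complex I, read 5′ to 3′ on the gene's own strand.
Ndufa11 (complex I, chr17:56717677-56717736, plus strand): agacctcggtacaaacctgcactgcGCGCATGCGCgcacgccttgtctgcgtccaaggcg
Uqcrc1 (complex III, chr9:108936668-108936697, plus strand): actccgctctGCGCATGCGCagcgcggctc
Cox6a1 (complex IV, chr5:115349086-115349145, minus strand): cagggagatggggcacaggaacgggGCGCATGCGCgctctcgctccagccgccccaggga
Atp5g2 (complex V, chr15:102671055-102671114, minus strand): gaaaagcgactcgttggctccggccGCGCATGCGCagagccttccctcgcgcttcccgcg
Sdhd (complex II, chr9:50603894-50603953, minus strand): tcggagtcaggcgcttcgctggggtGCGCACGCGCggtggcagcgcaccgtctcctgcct
Ndufs7 (complex I, chr10:80249464-80249493, plus strand): gccgaggccAAGATGGCGGCgctggcgggt

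Such matches are letters in a window and not measured sites. In the Epi comparison the median deposited log2 fold change was 0.49 over the 7 genes with the exact NRF1 palindrome, and 0.35 over the other 69. With any base at the 6th place the medians were 0.35 over 18 genes and 0.36 over the other 58. For the GABP core they were 0.40 over 18 genes and 0.34 over 58. The 5 genes with the YY1 motif (Ndufa9, Ndufaf8, Ndufs4, Ndufs6 and Ndufs7) had a median of 0.61, and the other 71 had 0.36. All 5 are complex I genes, and Ndufaf8 among them, like Ndufaf4 and Ndufaf5 among the exact NRF1 genes, is an assembly factor. The Epi medians were 0.72 for assembly factors and 0.41 for complex I common subunits. Motif was not separated from class and complex. In the organoid comparison the same medians were 0.12 and 0.02 for the exact NRF1 palindrome, 0.06 and 0.03 for its looser form, 0.05 and 0.02 for GABP, and 0.04 and 0.04 for YY1.

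The deposited table gives a fold change, a p-value and a false discovery rate (FDR) per gene and no level per library. Since each p-value depends on the reads of the 2 libraries and each fold change on their levels, read numbers were estimated for 12440 genes of the organoid and 12495 of the Epi comparison, and levels in RPKM, reads scaled to transcript length and library size, for some. On that scale the organoid libraries held about 16200000 (WT) and 16100000 (F4KO) reads, and the Epi libraries 18200000 and 14800000. Fabp4 itself had a log2 fold change of -3.58 with an FDR of 0.719 in organoids and of 1.93 with an FDR of 0.213 in Epi, per the authors' deposited table, and so checks no label. All 4 Y-linked genes looked up (Eif2s3y, Ddx3y, Kdm5d and Uty) were higher in the F4KO organoid library, at log2 fold changes from 2.96 to 9.53, so the organoid libraries also differ in Y-linked expression. In Epi the same 4 genes were at log2 fold changes from -0.02 to 0.57. The sex of the mice is not given in the labels. Enterocyte, stem, Paneth, goblet and enteroendocrine markers had fold changes in both comparisons. In organoids 5 of 6 muscle, 3 of 4 immune, 1 of 3 fibroblast, 1 of 3 erythroid, 1 of 2 endothelial and 1 of 4 adipocyte markers also had one. Having a fold change thus does not tell these cell types apart.

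Organoids of the 2 genotypes expressed the common subunits at nearly the same level. The log2 fold changes of all 77 lay between -0.20 and 0.28 per the authors' deposited table, with a median of 0.05, against a median of 0.00 over all 15845 genes with a fold change. Counted by size, with a fold of at least 1.2 in either direction (0.26 on the log2 scale), 5 of the 94 genes were higher in F4KO, against 16.9% of all genes, and 3 were lower, against 23.4%. Of these 8, Cyc1 was the single common subunit, and the other 7 were 5 tissue-restricted isoforms and the 2 Ndufb4 copies. At a deposited FDR of 0.001 or less, 18 of the 94 were higher, against 3.09% of all genes, and 4 were lower, against 4.7%. That FDR rests on read counts in 2 libraries and passes small differences in genes with many reads. Among all genes with an estimated 3000 to 10000 reads, 20.4% were higher at this limit, and so were 11 of the 45 common subunits in that range. Read estimates are unsure where a fold change is small, and the range holds such genes.

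**Figure D1:**
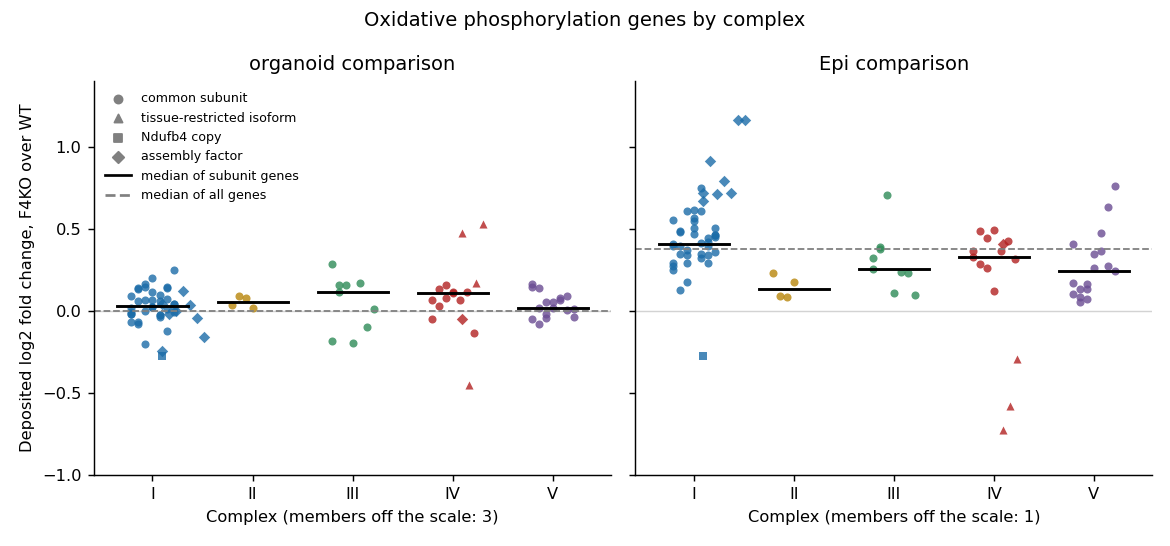
Deposited log2 fold change (F4KO over WT) of each member by complex, organoid comparison at left and Epi comparison at right. Points are genes, with shapes for their class, bars are the medians of the subunit genes of a complex, and dashed lines are the medians of all genes (0.00 and 0.38). Subunits sit near 0 in organoids and above 0 in Epi, where the medians of complexes II to V lie below the dashed line, and 3 organoid members and 1 Epi member lie off the scale.

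Complex III, which passes electrons from ubiquinol to cytochrome c, held the widest spread of common subunits in organoids, and its subunits went in both directions. Cyc1, cytochrome c1, which hands electrons to cytochrome c (gene ID 66445, chromosome 15, 76343513 to 76346260, GRCm38.p6), had an estimated 7300 reads in WT and 8810 in F4KO. Its ratio of 1.22 is the deposited fold change, from which the F4KO reads were set once the WT reads had been estimated. A 95% Clopper-Pearson interval on these estimated reads ran from 1.18 to 1.25, and like all intervals here it covers counting error only. The FDR of Cyc1 was 3.96e-33 per the authors' deposited table. Uqcrc1, a core protein on the matrix side, had 7910 and 8800 reads (1.09 to 1.16). The small subunits Uqcr11 and Uqcrq had 7290 and 8070 reads (1.08 to 1.15) and 8680 and 9600 reads (1.08 to 1.15). These 4 were the complex III genes higher at an FDR of 0.001 or less per the authors' deposited table, where 3.09% of all genes were.

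In contrast, 3 complex III genes were lower in the F4KO organoid library at that FDR, against 4.7% of all genes. Uqcrb, a small subunit near the ubiquinone site (chromosome 13, 66900576 to 66905350), had 5860 reads in WT against 5090 in F4KO, a ratio of 0.874 (0.842 to 0.908). Uqcrh, the hinge protein between cytochromes c1 and c (chromosome 4, 116066965 to 116075070), had 8920 and 7790 reads, a ratio of 0.881 (0.855 to 0.908). Uqcrc2, the partner of Uqcrc1 in the core, had 11300 and 10500 reads, a ratio of 0.934 (0.909 to 0.959). The median gene of the complex was Uqcr10, at a log2 fold change of 0.11 with an FDR of 0.00216 per the authors' deposited table, and Uqcrfs1, the Rieske iron-sulphur protein, was at 0.01.

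Complex I, the NADH dehydrogenase and the largest complex, had a median log2 fold change of 0.03 in organoids over its 36 common subunits and the 2 Ndufb4 copies. The 2 members at its middle were Ndufa12 and Ndufb7, at 0.02 and 0.04 per the authors' deposited table. Its highest common subunit was Ndufb10, an accessory subunit of the membrane arm (chromosome 17, 24722060 to 24724423), with 1660 reads in WT against 1960 in F4KO, a ratio of 1.19 (1.11 to 1.27). Its lowest common subunit was Ndufb3, another accessory subunit of that arm, with 1600 and 1380 reads, a ratio of 0.868 (0.807 to 0.934). At an FDR of 0.001 or less 4 common subunits were higher and none lower per the authors' deposited table. At the same limit 3.09% of all genes were higher and 4.7% lower. The 7 core subunits, which hold among them the flavin and the iron-sulphur clusters, had a median of 0.09, and the 29 accessory ones 0.02. The X-linked members Ndufa1, Ndufb11 and Cox7b were at -0.01, -0.02 and -0.05 per the authors' deposited table.

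Complex II, succinate dehydrogenase, which is also an enzyme of the citric acid cycle, had the narrowest range in organoids, from 0.02 to 0.09 on the log2 scale. Sdha, its flavoprotein, had 7000 reads in WT and 7130 in F4KO organoids, a ratio of 1.03 (0.992 to 1.06). Sdhb, the iron-sulphur subunit, Sdhc and Sdhd, the membrane anchors, were at log2 fold changes of 0.09, 0.07 and 0.02 per the authors' deposited table, and none of the 4 genes passed an FDR of 0.001. The smallest FDR of the 4, that of Sdhb, was 0.00889.

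Complex V had a median log2 fold change of 0.02 in organoids, and its highest genes included both main subunits of the catalytic head. Atp5a1 and Atp5b encode the alpha and beta subunits, which form the ring where ATP is made. Atp5a1 had 29600 reads in WT against 32900 in F4KO, a ratio of 1.12 (1.10 to 1.14), and Atp5b had 44200 and 48200, a ratio of 1.10 (1.09 to 1.11), with FDRs of 1.03e-43 and 2.00e-44 per the authors' deposited table. Atp5g3, one of the genes for the rotating c subunit, had 7340 and 8050 reads (1.07 to 1.14). These 3 were the complex V genes that passed an FDR of 0.001, a limit at which 3.09% of all genes were higher. The lowest members, Atp5h of the peripheral stalk and Atp5mpl, were at -0.08 and -0.05 per the authors' deposited table, and the median gene Atp5o, which joins stalk and head, was at 0.02.

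Complex IV, cytochrome c oxidase, had a median log2 fold change of 0.11 in organoids over 17 subunit genes and of 0.07 over the 11 common ones. Ndufa4, named for complex I but a subunit of complex IV, is counted here. The median gene was Ndufa4, at 0.11. Cox5b, a zinc-binding subunit, had 7290 reads in WT against 8080 in F4KO, a ratio of 1.12 (1.08 to 1.15), and Cox6a1 had 10100 and 10800, a ratio of 1.08 (1.05 to 1.11). Cox7a2 went the other way with 6180 and 5580 reads, a ratio of 0.911 (0.878 to 0.945). In all 6 common subunits were higher and Cox7a2 alone lower at an FDR of 0.001 or less per the authors' deposited table. Over all genes 3.09% were higher and 4.7% lower at this limit.

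The isoforms of complex IV that other tissues use had few reads in organoids beside their common partners, in numbers not scaled to length. Cox6a2, the heart and skeletal muscle form of Cox6a1, had 72 reads in WT against 99 in F4KO, a ratio of 1.39 (1.01 to 1.90) with an FDR of 0.139 per the authors' deposited table. Cox4i2, the lung form of Cox4i1, had 0 reads in WT and 2 in F4KO, both under the floor of 3 counts, and Cox8b, the muscle form of Cox8a, had 4 and 1, a ratio of 0.25 (0.00512 to 2.55). Cox7a1, the muscle and brown fat form of Cox7a2, had 375 and 419 reads, a ratio of 1.13 (0.977 to 1.30). Cox6b2, the testis form of Cox6b1 (chromosome 7, 4751792 to 4753094), had 190 and 138, a ratio of 0.73 (0.582 to 0.914) with an FDR of 0.0308 per the authors' deposited table.

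Ndufa4l2, a relative of Ndufa4 known to be induced in low oxygen, was the isoform with the smallest FDR. It had 475 reads in WT against 681 in F4KO, a ratio of 1.45 (1.28 to 1.63), with an FDR of 1.82e-08 per the authors' deposited table. Of the common partners, Cox4i1, Cox6b1 and Cox8a were at 0.07, 0.06 and 0.07, Cox7b, the partner of no isoform with a fold change, at -0.05, and Ndufa4 at 0.11 on the log2 scale of the authors' deposited table.

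The copies of Ndufb4 are uncertain, because reads can be shared among near-identical sequences. Ndufb4b (chromosome 19, 25033108 to 25033578) was at 0 reads in WT and 7 in F4KO organoids. With the floor of 3 counts per library in place of the WT reads, its ratio was 2.35. The Clopper-Pearson interval on its reads started lower, at 1.45. Ndufb4c (chromosome 15, 73809449 to 73809933) had 785 and 644 reads, a ratio of 0.827 (0.744 to 0.919). Ndufb4 itself, on chromosome 16, was at a log2 fold change of 0.02 per the authors' deposited table. The 9 assembly factors, among them Ndufaf1 to Ndufaf8, which build complex I, and Cox7a2l, which joins complexes III and IV, had a median of -0.02, and none passed an FDR of 0.001 in either direction in that table. At that limit 3.09% of all genes were higher and 4.7% lower.

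In the Epi comparison all 77 common subunits were higher in F4KO than in WT, with log2 fold changes from 0.05 to 0.76 and a median of 0.35 per the authors' deposited table. Most genes went the same way, with 11708 of all 16336 above 0. The medians by complex, isoforms and copies included, were 0.41 for complex I, 0.13 for complex II, 0.26 for complex III, 0.33 for complex IV and 0.24 for complex V. However, the median over all 16336 genes with a fold change was 0.38, so only complex I had a median above that of all genes. Taken relative to it, the medians of complexes I to V were 0.03, -0.24, -0.12, -0.05 and -0.13. Of the 91 members with a fold change, 64 were at least 1.2-fold higher, against 57.2% of all genes, and 4 at least 1.2-fold lower, against 15.3%. At least 1.5-fold higher were 16, against 38.9%. At a deposited FDR of 0.001 or less 74 were higher, against 30.6% of all genes, and 2 lower, against 7.92%.

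The comparison with all genes depended on estimated read number, since the genes with few reads were the ones most often higher. Over genes with fewer than 100 reads (the geometric mean of both libraries) the median Epi log2 fold change was 0.67, and over those with 3000 to 10000 reads it was -0.01. The common subunits lay mostly in the upper ranges. The 9 with 100 to 1000 reads had a median of 0.37, against 0.39 over all genes there, and 7 of them were at least 1.2-fold higher, against 62.1%. Of the 34 with 1000 to 3000 reads, 32 were at least 1.2-fold higher, against 34.8% of the 1946 genes in that range, and their median was 0.41 against 0.13. Of the 31 with 3000 to 10000 reads, 14 were, against 19.1% of 834 genes, and their median was 0.26 against -0.01. The 3 with more reads had a median of 0.17 against -0.03. These ranges were set after the data had been seen and no test was made of the difference. Read estimates are unsure for genes that hardly differed, and such genes lie in the ranges too. Genes with no estimate are left out, among them 110 whose Epi p-value was too small to be printed. How far this moved the medians and shares over all genes was not tested. Across the 77 subunits the log2 fold change had a Pearson correlation of -0.45 with log2 read number and of -0.15 with log2 transcript length, as a description over genes of the same 2 libraries.

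**Figure D2:**
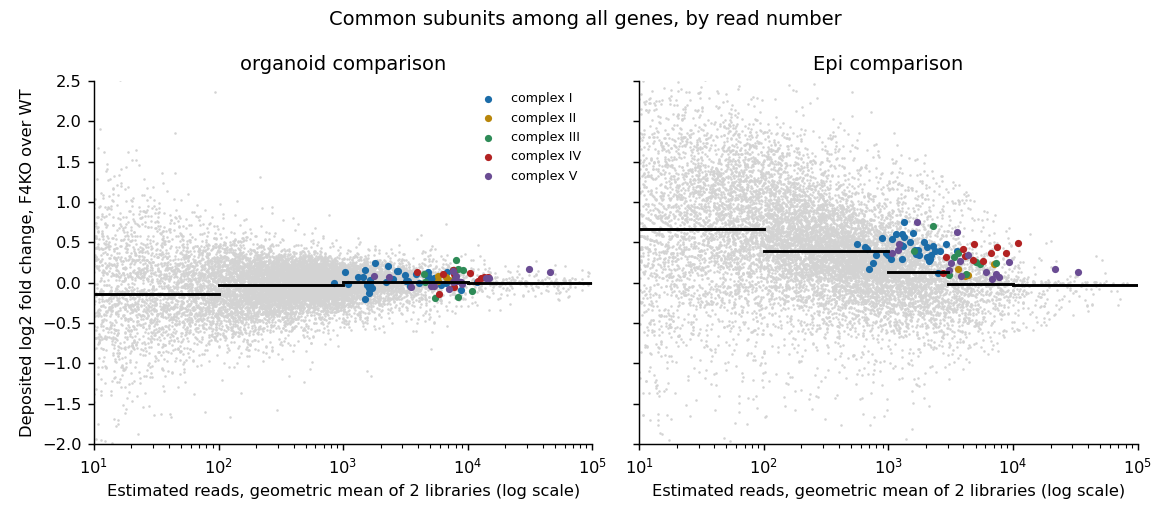
Deposited log2 fold change (F4KO over WT) against estimated reads (log scale) for all genes in grey and for common subunits in colour, organoid at left and Epi at right. Black bars are the medians of all genes with a read estimate in a read range. In Epi the bars fall from 0.67 to -0.03 as reads increase, while the subunits stay above 0.

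Marker genes of several cell types differed between the Epi libraries alongside these subunits. All 7 enterocyte markers were lower in F4KO, with log2 fold changes from -1.30 (Apoa4) to -0.28 (Vil1), and all 4 crypt stem markers were higher, from 1.26 (Lgr5) to 1.59 (Smoc2), per the authors' deposited table. The 3 fibroblast markers were higher, from 2.22 to 3.21, and of the 6 muscle markers 5 were higher and 1, Acta1, lower at -1.25. The 3 erythroid markers were lower, down to -2.78, and of 4 adipocyte markers none had a fold change. Both Paneth markers were higher, at 0.63 (Lyz1) and 1.78 (Mmp7), and of the 4 immune markers 2 were above and 2 below 0. Of the 4 goblet markers 3 were above and 1 below 0. The 2 enteroendocrine markers were above 0, and of the 2 endothelial markers 1 was above and 1 below. The 96 genes named Rpl or Rps with a number and with a fold change, mostly of the cytosolic ribosome, had a median of 1.16. In organoids the medians were 0.17 for the enterocyte and -0.20 for the crypt stem markers. In mixed tissue, fewer cells of a type and less RNA per cell cannot be told apart, and the part of cell composition in the subunit values was not tested.

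Complex I had the highest median of the 5 complexes in Epi, and 33 of its 36 common subunits were at least 1.2-fold higher in F4KO, against 57.2% of all genes and 34.8% of genes with 1000 to 3000 reads. Its 2 highest genes were core iron-sulphur subunits. Ratios take account of the library totals, which in Epi stood at 0.813 for F4KO over WT, so a gene can have fewer F4KO reads and a ratio above 1. Ndufs8, which carries iron-sulphur clusters on the path to ubiquinone (chromosome 19, 3908863 to 3912774), had 1150 reads in WT against 1570 in F4KO, a library-scaled ratio of 1.68 (1.56 to 1.82) with an FDR of 3.32e-40 per the authors' deposited table. Ndufs7, whose cluster is the last before ubiquinone (chromosome 10, 80249105 to 80256794), had 1400 and 1740, a ratio of 1.53 (1.43 to 1.64). The accessory subunits Ndufs6 and Ndufb5 followed at 1.52 (1.40 to 1.66) and 1.53 (1.41 to 1.65). The median gene was Ndufb11, at 1.33 (1.24 to 1.42).

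At the lower end of complex I in Epi lay Ndufa6, an accessory subunit of the matrix arm, with 2650 reads in WT against 2350 in F4KO, a ratio of 1.09 (1.03 to 1.15), and Ndufc1, at 1.13 (1.01 to 1.25). The copy Ndufb4c was lower, at a log2 fold change of -0.28 with an FDR of 0.0444 per the authors' deposited table, beside 0.47 for Ndufb4. The 7 core subunits had a median of 0.46 and all 7 were at least 1.2-fold higher, and of the 29 accessory subunits, with a median of 0.40, 26 were. The share of all genes higher by that size was 57.2%.

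Complex II had the smallest median of the 5 complexes in Epi. Sdha (chromosome 13, 74322255 to 74350240) had 7260 reads in WT against 6910 in F4KO, a ratio of 1.17 (1.13 to 1.21), and Sdhd had 3770 and 3450, a ratio of 1.13 (1.08 to 1.18). Sdhb and Sdhc were at 0.09 and 0.08 on the log2 scale with FDRs of 0.00662 and 0.0164 per the authors' deposited table. None of the 4 reached 1.2-fold, where 57.2% of all genes were higher by that size.

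In complex III the Epi values ranged from Uqcrfs1 to Uqcr11. Uqcr11, a small subunit (chromosome 10, 80402997 to 80406821), had 1980 reads in WT against 2630 in F4KO, a ratio of 1.63 (1.54 to 1.73) with an FDR of 4.02e-60 per the authors' deposited table. Uqcr10 had 1550 and 1650, a ratio of 1.31 (1.22 to 1.40). Uqcrfs1 had 3290 and 2860, a ratio of 1.07 (1.01 to 1.12), and Uqcrb 4500 and 3940, a ratio of 1.08 (1.03 to 1.12). Cyc1, the highest of the complex in organoids, was its median gene in Epi at 1.19 (1.15 to 1.24).

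In complex V, 2 of the 3 genes of the c subunit stood at the top of the Epi values. Atp5g1, Atp5g2 and Atp5g3 encode the same mature c subunit, which forms the rotor ring, with different mitochondrial targeting sequences. Atp5g2 (chromosome 15, 102662868 to 102671047) had 1450 reads in WT against 1990 in F4KO, a ratio of 1.69 (1.58 to 1.81), and Atp5g1 had 3150 and 3960, a ratio of 1.55 (1.48 to 1.62). Atp5g3, with the most reads of the 3, had 7740 and 6760, a ratio of 1.08 (1.04 to 1.11). The intervals cover counting error within 2 libraries, and the comparison among these genes was chosen after their values were seen.

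The abundant catalytic subunits of complex V differed less. Atp5a1 had 22800 and 20900 reads, a ratio of 1.13 (1.10 to 1.15), and Atp5b 34900 and 31100, a ratio of 1.10 (1.08 to 1.11), close to their organoid ratios. Atp5e, the smallest subunit of the head and stalk, was at 1.39 (1.28 to 1.51). Atp5o and Atp5c1 were the lowest members, at log2 fold changes of 0.05 and 0.07 with FDRs of 0.065 and 0.00507 per the authors' deposited table, and Atp5md, a small membrane subunit, was the median gene at 1.18 (1.13 to 1.24).

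In complex IV all 11 common subunits were higher in Epi, 10 of them at least 1.2-fold, against 57.2% of all genes. At the top was Cox6a1 (chromosome 5, 115345652 to 115348958), with 10300 reads in WT against 11800 in F4KO. Its ratio was 1.41 (1.37 to 1.44), with an FDR of 5.60e-140 per the authors' deposited table. Cox4i1, Cox6b1, Cox7a2, Cox7b and Cox8a had ratios of 1.29, 1.29, 1.24, 1.25 and 1.36, and Cox7b was the median gene of the complex. Ndufa4 was the lowest common subunit at 1.09 (1.03 to 1.15).

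Of the 4 restricted isoforms with an Epi fold change, Cox7a1 and Cox6b2 were lower in F4KO at an FDR of 0.001 or less, while Cox6a2, with an FDR of 0.633 per the authors' deposited table, and Cox4i2 had few reads. Cox7a1 (chromosome 7, 30184171 to 30186030) had 1820 reads in WT against 1210 in F4KO, a ratio of 0.817 (0.759 to 0.879) with an FDR of 1.73e-07 per the authors' deposited table, while its partner Cox7a2 had 2880 and 2910. Cox6b2 had 363 and 198, a ratio of 0.67 (0.561 to 0.799) with an FDR of 1.47e-05 in that table. Cox6a2 had 6 and 3 reads, a ratio of 0.604 (0.0995 to 2.88), and Cox4i2 had 0 and 1, both under the floor of 3 counts. Cox8b and Ndufa4l2 had no Epi fold change. Besides these isoforms, Ndufb4c was the one other member lower in F4KO.

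All 9 assembly factors were at least 1.2-fold higher in Epi, against 57.2% of all genes, and 8 of them at least 1.5-fold, against 38.9%, with a median log2 fold change of 0.72. The 8 complex I factors had between 39.8 and 313 reads in a library, and the medians over all genes were 0.67 below 100 reads and 0.39 from 100 to 1000 reads. Ndufaf6 had an estimated 39.8 reads in WT against 72.2 in F4KO, a ratio of 2.23 (1.50 to 3.38), and Ndufaf7, a methyltransferase, had 106 and 192, also 2.23 (1.75 to 2.86). Ndufaf1, Ndufaf2, Ndufaf3, Ndufaf4, Ndufaf5 and Ndufaf8 had ratios of 1.59, 1.88, 1.64, 1.73, 1.65 and 1.65. Cox7a2l, with 1800 and 1940 reads, was at 1.32 (1.24 to 1.41).

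**Figure D3:**
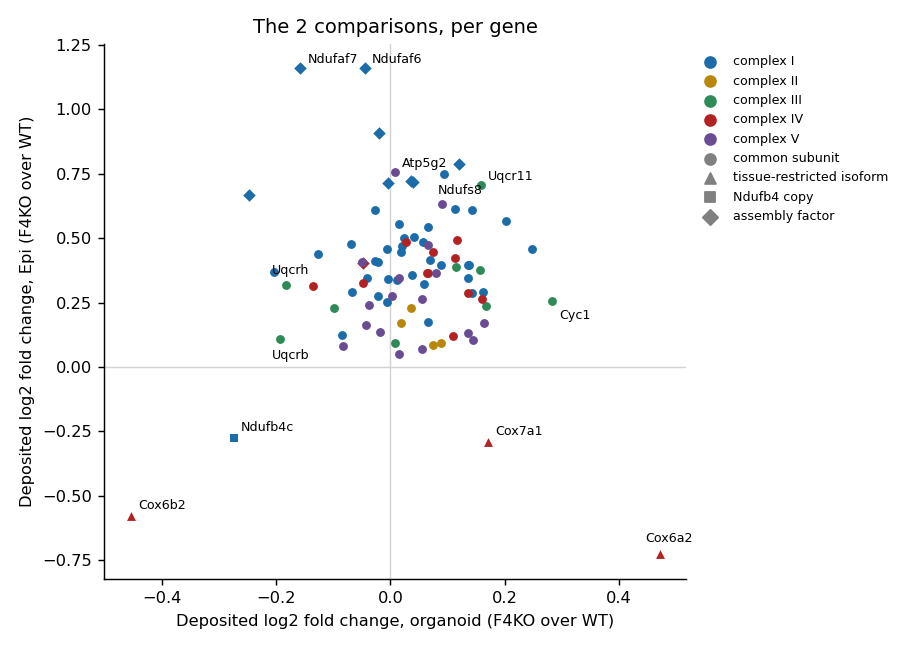
Deposited log2 fold change of each member in the organoid comparison (x axis) and in the Epi comparison (y axis), both F4KO over WT, with colours for complexes and shapes for classes. Common subunits form a cloud near 0 on the x axis and above 0 on the y axis, and Cox7a1, Cox6a2, Cox6b2 and Ndufb4c lie below 0 in Epi. Cox4i2 and the 3 members with no Epi fold change are not drawn.

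Set side by side, the 2 comparisons ordered the subunits differently. Of the 77 common subunits, 74 had a higher log2 fold change in Epi than in organoids, and the exceptions were Cyc1 (0.26 and 0.28) and, in complex V, Atp5b (0.13 and 0.14) and Atp5g3 (0.10 and 0.15), per the authors' deposited table. The median over all genes was also higher in Epi, at 0.38 against 0.00 in organoids. The share of all genes with a higher value in Epi was not counted. The correlation across the 77 genes was 0.15, a description over 4 libraries with no replicates. Higher in F4KO in both were 23 of 36 common subunits of complex I, 4 of 4 of complex II, 6 of 9 of complex III, 9 of 11 of complex IV and 12 of 17 of complex V. Over all genes, 7260 of 15845 were above 0 in organoids and 11708 of 16336 in Epi. Uqcrb and Uqcrh, lower in organoids, were at 0.11 and 0.32 in Epi. The members at least 1.2-fold lower in both comparisons were Cox6b2 and Ndufb4c, and Cox6a2 was the 1 member past 1.2-fold in opposite directions. No test of the difference between comparisons was possible.

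Levels per transcript length could be recovered for 33 members in organoids and 34 in Epi, 27 of them in both. In organoids they spanned from 11.3 RPKM in WT and 12.3 in F4KO for the assembly factor Ndufaf4 to 1600 and 1690 for Cox8a, a small structural subunit of complex IV. The 15 recovered common subunits of complex I had a median level of 166 RPKM in WT and 168 in F4KO, and the 7 of complex III 368 and 389. Medians of the 4 of complex IV were 1180 and 1250 RPKM, and those of the 4 of complex V 710 and 759. Complex I subunits thus had the lowest median level of these complexes, although Ndufa6 reached 1070 and 1010. Within complex III, Uqcr11 was at 1130 and 1260 RPKM, Uqcrb at 704 and 615, Uqcrc1 at 295 and 331 and Uqcrfs1 at 216 and 218.

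In the Epi libraries the same order held for the complexes, at lower recovered values. The medians were 82.7 RPKM in WT and 112 in F4KO for 12 common subunits of complex I, 246 and 290 for 5 of complex III, 651 and 839 for 5 of complex IV and 529 and 571 for 6 of complex V. Ndufaf4 was at 2.34 and 4.04 RPKM and Uqcr11 at 273 and 446. Levels of the 2 comparisons were scaled separately, so their distance is a description and not a comparison of tissues.

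**Figure D4:**
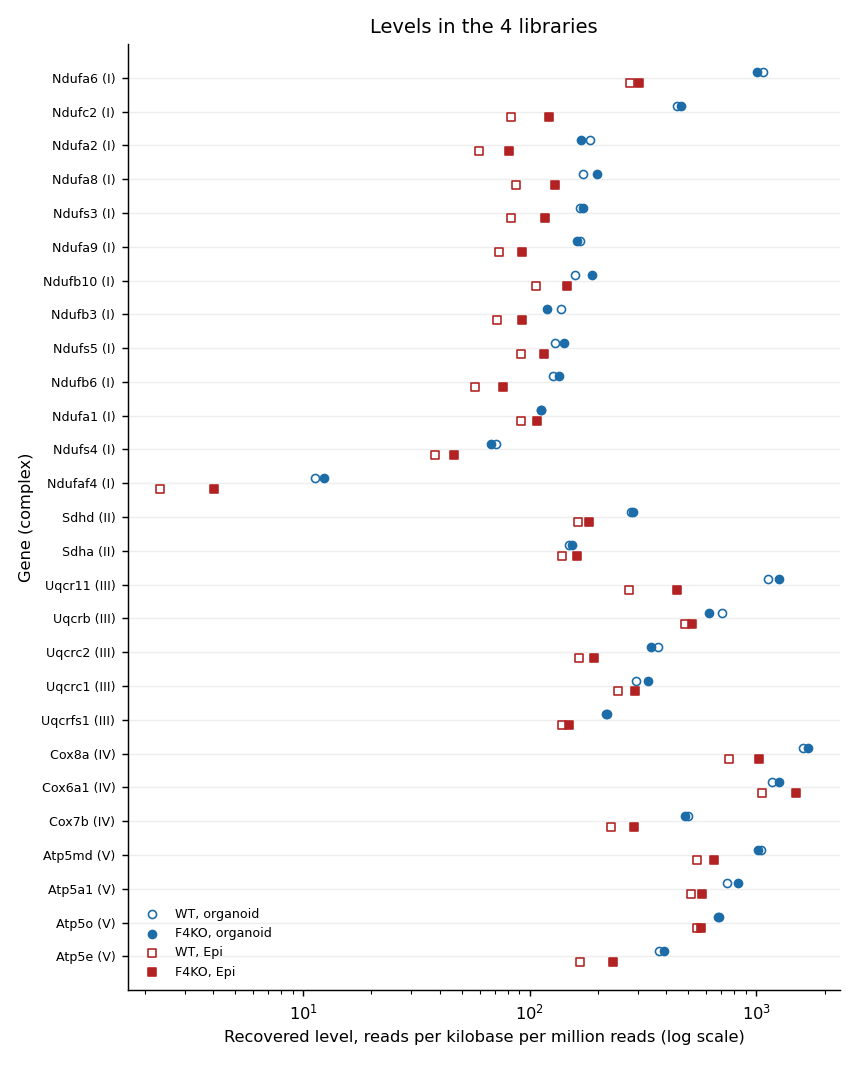
Recovered level (RPKM, log scale) of the 27 members resolved in both comparisons, in the WT (open) and F4KO (filled) libraries, circles for organoid and squares for Epi. Organoid pairs nearly coincide, for example 1600 and 1690 for Cox8a, whereas the filled Epi squares lie to the right of the open ones.

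Other genes of mitochondrial metabolism, taken from lists, gave a background to the subunits. In Epi the median log2 fold change of the 78 mitochondrial ribosomal protein genes was 0.66, with 71 at least 1.2-fold higher and none lower, where 57.2% of all genes were higher and 15.3% lower. The 40 other assembly factors had a median of 0.55, with 29 higher and 2 lower by that size, and the 12 regulators one of 0.61, with 9 higher and 0 lower. Among the regulators, Tfam, which packages mitochondrial DNA and starts its transcription, was at 0.91 and Ppargc1a, the coactivator that drives mitochondrial biogenesis, at 0.05, per the authors' deposited table. The 14 electron carrier genes, which include those for ubiquinone synthesis, had a median of 0.51, with 10 higher and 1 lower.

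The 14 citric acid cycle genes had the lowest of these medians in Epi, 0.21, with 5 at least 1.2-fold higher, against 57.2% of all genes, and 3 lower. Citrate synthase gene Cs was at -0.28 and the malate dehydrogenase gene Mdh2 at -0.38, while Idh2, an NADP-linked isocitrate dehydrogenase, was at 0.95, per the authors' deposited table. Cytochrome c gene Cycs, whose protein links complexes III and IV, was at -0.24, below all 77 common subunits. In organoids these lists had medians from 0.00 to 0.09, and Mdh2 was at 0.28 and Cs at 0.14 there, per the authors' deposited table.

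**Figure D5:**
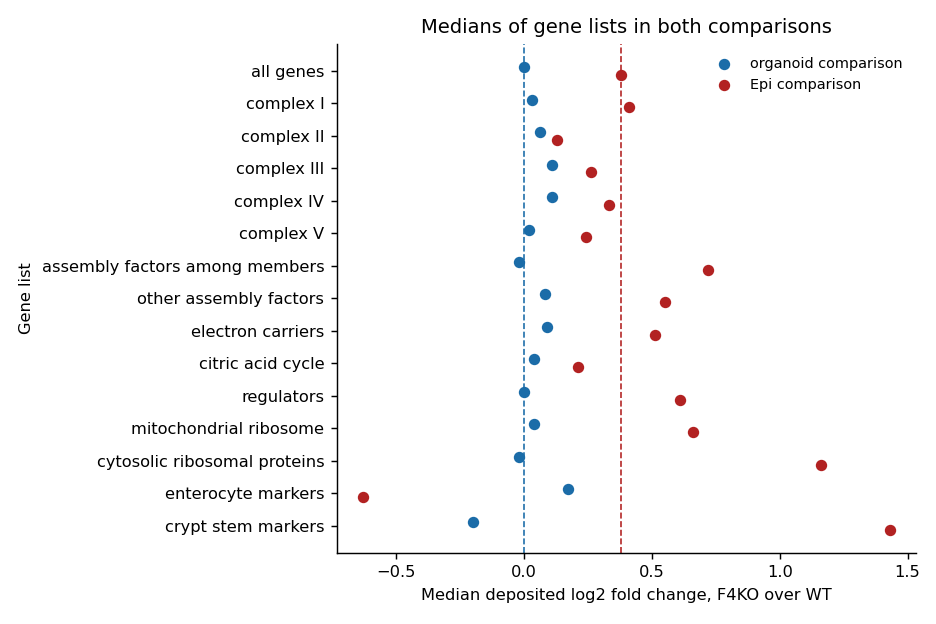
Median deposited log2 fold change (F4KO over WT) of the subunit genes by complex, of other mitochondrial lists and of marker lists, organoid in blue and Epi in red, with dashed lines at the medians of all genes (0.00 and 0.38). The organoid points lie close to 0, while the Epi points run from -0.63 for enterocyte markers to 1.43 for crypt stem markers. Other marker lists are not drawn, among them those with Epi medians beyond these, erythroid at -2.57, muscle at 2.97 and fibroblast at 3.10.

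The authors' deposited table of transcripts lists 177 transcripts of these genes, and 52 members have a single one. With more than 1 transcript with a fold change, 8 of 41 members in organoids and 15 of 39 in Epi had transcripts past 1.2-fold in both directions, so that the fold change of these genes combines unlike values. For Ndufb9, an accessory subunit of the complex I membrane arm, the transcript NM_023172.4 was at 0.13 in Epi and 0.11 in organoids, while NM_001364808.1 was at -1.55 in organoids with an FDR of 4.84e-18 and was listed at the floor in the WT Epi library. The gene as a whole was at 0.48 in Epi and 0.06 in organoids. The sources used here do not say how reads were shared among transcripts.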

How the data were processed

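Libraries were made with a SMARTER mRNA-seq kit from 1.5 ug of total RNA, per the labels' protocols. The submitters' processing notes name the builds GRCm38 and mm10, and the sources used here name no aligner, quantifier or annotation. The authors deposited, per the file headers, a log2 fold change for each comparison, a p-value from a test named after the Poisson distribution, and an FDR score, which is not limited to 1. The planned normalized levels per library were replaced by these values.

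Each deposited fold change was written as a ratio of whole numbers, on the assumption that levels had been rounded to 0.01. Such a ratio can be found for nearly any value, so finding it does not check the assumption. Reads were estimated by solving the Audic-Claverie p-value, with the F4KO over WT ratio of library totals at 0.992 (organoid) and 0.813 (Epi), and were printed where a gene had 1 transcript and a log2 fold change of at least 0.02 or, with more transcripts, of at least 0.1. The estimate was tested on simulated data. Below 120 reads a whole pair was printed if it alone matched. Levels were printed where reads, transcript length (within 15%) and fold change gave 1 solution. Of 1747 organoid and 1407 Epi genes with a small factor, 83.3% and 84.2% lay that close to a whole multiple.

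Named were the 4 Sdh genes, in other complexes the 2 highest, 2 lowest and the median member, members past 1.5-fold, the isoforms with their partners, and members past 1.2-fold in opposite directions. Others, such as further complex III genes, the c subunit genes and Atp5b in organoids, were added after their values were seen. The members and lists were chosen with earlier results of these data known. Python 3 with numpy, pandas and scipy was used. Alternatives are given in the closing section.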

Additional observations from a re-analysis of the deposited data

Results flagged for a closer look

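Cox6a2, the muscle form of a complex IV subunit, lay past 1.2-fold in opposite directions in the 2 comparisons, at a log2 fold change of 0.47 in organoids and -0.73 in Epi per the authors' deposited table. It had 72 and 99 reads in the organoid libraries and 6 and 3 in the Epi libraries, and the Epi interval, from 0.0995 to 2.88, includes 1. The difference between comparisons was not tested. The transcript NM_001364808.1 of Ndufb9, which the gene comparisons do not use, was at 13.16 in Epi with an FDR of 2.59e-251 per the authors' deposited table of transcripts, because it was listed at the floor in the WT library. No fold is drawn from it.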

How the results depend on the processing

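The organoid count of members past 1.2-fold, 8, became 3 at a fold of 1.5, 3 at a fold of 2, 2 with an FDR of 0.001 or less in addition, 22 by that FDR with any fold, 26 by the transcript table and 5 with at least 20 reads. The Epi count of 68 became 17 at a fold of 1.5, 3 at a fold of 2 and 24 after centring on the median of all genes, and the other alternatives ran from 64 to 76. In organoids the median of complex III went from 0.11 to 0.06 by the transcript table and to 0.05 as a mean. Means of complexes I and IV were 0.21 each, against medians of 0.03 and 0.11, since they include Ndufb4b and Cox4i2 with a WT library at 0 reads. In Epi, centring on all genes, whose median is 0.38, took complex I from 0.41 to 0.03 and reversed complex II to -0.24, complex III to -0.12, complex IV to -0.05 and complex V to -0.13. The direction of these complexes in Epi thus depends on that scaling. The complex II median in Epi was 0.20 by the transcript table. No paired analysis was possible because each genotype had 1 library, and for the same reason no replicate could be left out.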
